A study of Mus musculus with 11 samples.

Results

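The genes described here copy the DNA of a cell during S phase or govern its entry into that phase. A list of 42 mouse genes was given by name, chosen with earlier results of these data known, so the list itself got no test. Of these, 41 were measured, among 18193 genes in all. Chaf1a, a histone chaperone subunit, had no probe set with a single gene symbol and was not analysed here. Each gene was read from 1 probe set, the one with the highest mean over all arrays among those with 1 symbol, so levels of different genes lie on different scales and were not compared.

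Macrophages were grown over 7 days from bone marrow of 7-week-old C57BL/6 mice that lacked Rag1 (Rag1-/-), a gene that B and T lymphocytes need to mature, and cells carrying the macrophage surface protein F4/80 were sorted. All groups shared that genotype, culture time and sort. M1 macrophages were given IFN-g and LPS (3 arrays), M2a macrophages IL-4 and IL-13 (3 arrays), and M0 macrophages no cytokines (5 arrays). One Affymetrix mouse GeneChip was run per sample on its total RNA, and all values below are the deposited log2 values or differences of them. The labels number the samples of each group without saying that they came from separate mice or cultures, so p-values speak to the spread among samples alone, and that spread may be technical.

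Replication is prepared in G1. The origin recognition complex, Cdc6 and Cdt1 load the ring of Mcm2 to Mcm7 onto DNA, and Cdc45, the GINS proteins and Mcm10 turn that ring into an active helicase. Polymerase alpha with its primase starts each new strand, polymerases epsilon and delta extend it, and the clamp Pcna with its loader Rfc keeps them in place. Ribonucleotide reductase and thymidylate synthase make the building blocks. Many of these genes are known targets of E2F factors, which the retinoblastoma protein holds in check until cyclin-dependent kinases phosphorylate it. Macrophages in culture divide in response to the growth factor Csf1, and interferon-gamma, lipopolysaccharide and IL-4 are all known to slow that division in culture.

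The arrays of 1 group did not vary alike. Pairwise correlations over the 18193 genes, each read from its 1 probe set, lay between 0.997 and 0.998 among M1 arrays. They lay between 0.996 and 0.998 among M2a arrays and between 0.956 and 0.995 among M0 arrays. M0 arrays 1 and 4 correlated at 0.988 with each other, while arrays 2, 3 and 5 correlated at 0.991 to 0.995, and the correlations across that split were 0.956 to 0.981. On every one of the 45101 probe sets, averaging M0 arrays 1 to 3 also gave the same value as averaging M0 arrays 4 and 5, to within 8.3e-05, so these 5 arrays tell less about the M0 spread than independent samples would. The replication genes had a median SD of 0.0811 in M1, 0.0711 in M2a and 0.298 in M0. F4/80 itself, encoded by Adgre1, averaged 12.41 ± 0.06 in M1, 11.74 ± 0.20 in M2a and 11.19 ± 0.37 in M0 (log2, SD), and Csf1r, the receptor of Csf1, 13.46 ± 0.02, 12.00 ± 0.27 and 13.22 ± 0.20 in the same order.

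In M1 macrophages most replication genes were below M0. Of the 41 genes, 25 fell, 3 rose and 13 did not pass the test (limma, adjusted p under 0.05 over all 18193 genes). Over all genes, 39.7% passed, 17.6% as falls and 22.1% as rises. The median difference of the replication genes was -0.78, against 0.06 for all genes (log2). A fall of at least 2-fold passed for 16 of them and a rise of that size for 1, where 6.41% and 6.27% of all genes did so, and for 22 of them every M1 array lay below every M0 array, where 17.4% of all genes did so.

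In M2a macrophages 27 of the 41 genes fell, none rose and 14 did not pass the test. Over all genes, 31.9% passed, 13.3% as falls and 18.6% as rises. No replication gene was higher at an unadjusted p under 0.05 in limma either, but up to 2 rose under other settings of the same test. The median difference was -0.84, against 0.07 for all genes, and 16 genes fell at least 2-fold and 0 rose as much, where 4.95% and 4.41% of all genes did so. For 27 genes every M2a array lay below every M0 array, where 13.9% of all genes did so.

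Both comparisons use the same M0 arrays, so they are not independent of each other. Side by side, 20 genes fell in both, 5 passed as falls in M1 and missed the threshold in M2a (Orc1, Cdt1, Pole2, Tyms and Dut), and 7 passed as falls in M2a and missed it in M1 (Mcm4, Gins3, Rfc5, Rpa2, Rpa3, Fen1 and Chaf1b). A further 3 rose in M1 and missed the threshold in M2a (Pola2, Ccne1 and E2f1), and 6 passed in neither (Orc6, Gins2, Prim2, Pcna, Rfc3 and Rfc4). Passing in 1 comparison and missing in the other is not a difference between M1 and M2a, which was tested directly and is given with each role below. Without M0 arrays 1 and 4, an alternative chosen after seeing the data, 26 genes fell and 3 rose in M1, and 34 fell and 0 rose in M2a. More of all genes passed there too, 50.7% in M1 and 45.3% in M2a, against 39.7% and 31.9% in the main fit. Among genes that passed and had further probe sets, 30 of 38 of those sets went the same way in M1 and 26 of 30 in M2a. In bulk RNA of sorted cells, fewer cells in S phase and less of each RNA per cell cannot be told apart.

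**Figure D1:**
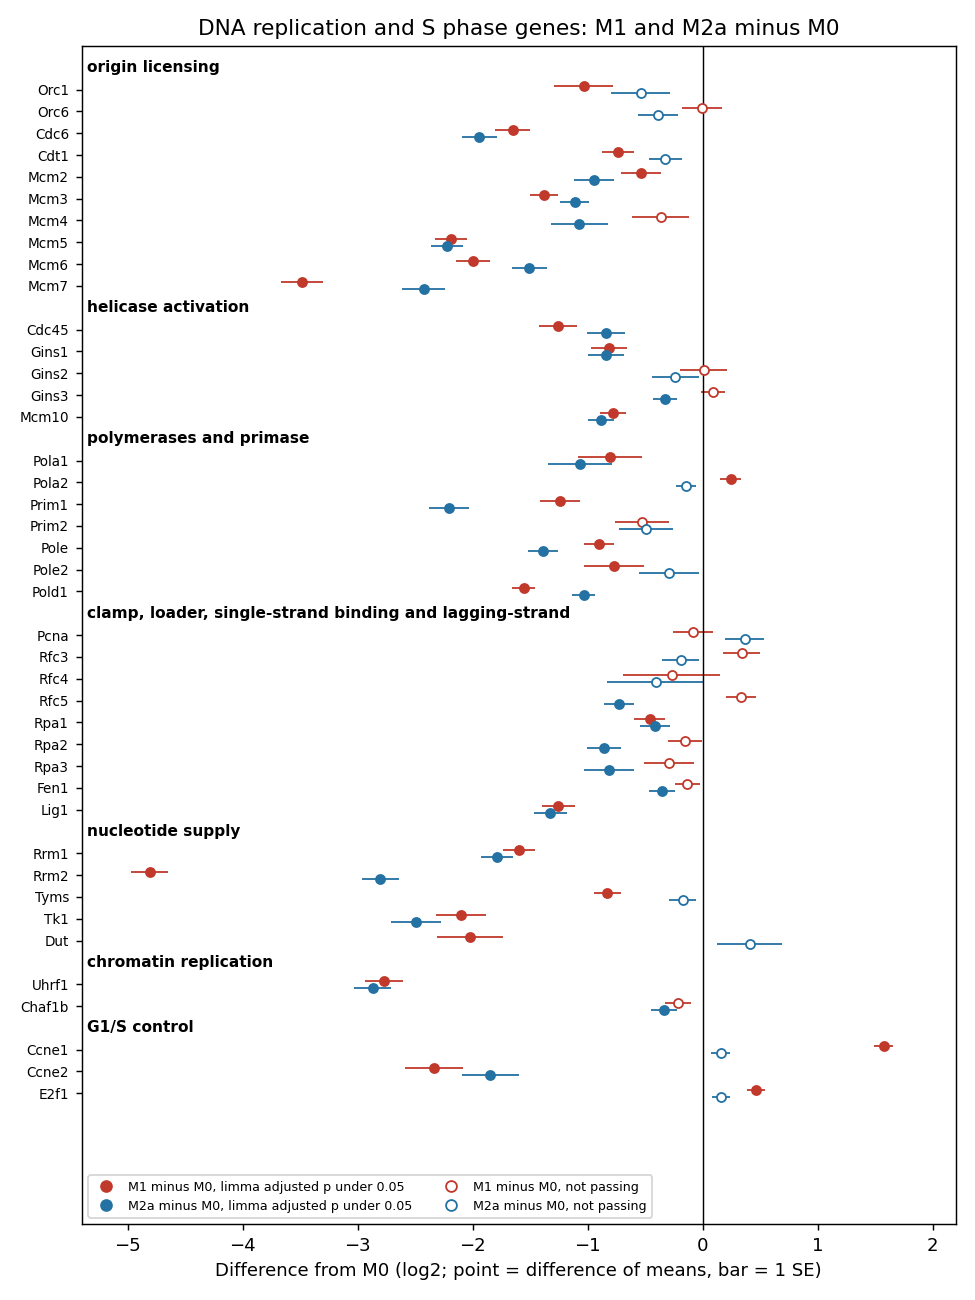
Difference from M0 in log2 for each of the 41 replication genes, grouped by role, with M1 (red) above M2a (blue) for each gene, and bars of 1 SE. Filled points passed limma at an adjusted p under 0.05. Most filled points lie left of 0, and Ccne1, E2f1 and Pola2 in M1 are the filled points right of it.

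Of the 10 licensing genes, 8 fell in M1 and 7 in M2a, with median differences of -1.21 and -1.09 (log2). The shares of all genes to set beside the counts of this and each later role are 17.6% falling and 22.1% rising in M1. In M2a they are 13.3% and 18.6%. Mcm7, a subunit of the helicase ring, read 6.86, 6.84 and 6.97 on the M1 arrays, 7.89, 8.06 and 7.89 on the M2a arrays, and 10.86, 10.40, 9.86, 10.58 and 10.17 on the M0 arrays. The 3 groups did not overlap, with M1 lowest and M0 highest. Its difference from M0 was -3.48 ± 0.18 in M1 (SE, 11.2-fold lower, adjusted p = 6.7e-08) and -2.43 ± 0.18 in M2a (5.38-fold lower, adjusted p = 2.3e-06), and M1 was below M2a by -1.06 ± 0.21 (adjusted p = 0.0023).

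Mcm5 read 6.77, 6.80 and 6.95 in M1, 6.79, 6.90 and 6.73 in M2a, and 9.18, 9.25, 8.67, 8.84 and 9.23 in M0. Both treated groups lay far below M0 and overlapped each other. The differences from M0 were -2.19 ± 0.14 in M1 (4.57-fold lower, adjusted p = 2.9e-07) and -2.22 ± 0.14 in M2a (4.67-fold lower, adjusted p = 4.7e-07), and M1 and M2a differed by 0.03 ± 0.16 (adjusted p = 0.90). Mcm6 read 7.43, 7.39 and 7.48 in M1, 8.03, 8.06 and 7.69 in M2a, and 9.48, 9.59, 9.23, 9.09 and 9.77 in M0. It fell by 2.00 ± 0.15 in M1 and fell by 1.51 ± 0.15 in M2a, relative to M0 (adjusted p = 1.2e-06 and 1.9e-05). M1 was also below M2a for Mcm6 by -0.49 ± 0.17 (adjusted p = 0.048), a call lost on leaving out any of 8 single arrays (all but M0 arrays 4 and 5 and M2a array 3), with adjusted p between 0.022 and 0.15.

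Of the rest of the ring, Mcm3 fell by 1.38 ± 0.12 in M1 and fell by 1.11 ± 0.12 in M2a (adjusted p = 4.8e-06 and 4.2e-05). Mcm2 fell by 0.53 ± 0.17 in M1 and fell by 0.95 ± 0.17 in M2a (adjusted p = 0.030 and 0.0016). The M1 arrays of Mcm2 overlapped M0 array 3, and the M1 call was lost without any 1 of the M1 arrays, with adjusted p between 0.0035 and 0.10 over the 11 omissions. The other probe set of Mcm2 fell further, by 2.10 in M1 and by 1.44 in M2a. M1 minus M2a was -0.66 on that set and 0.41 on the set used. Mcm4 averaged 8.20 ± 0.15 in M1, 7.49 ± 0.06 in M2a and 8.56 ± 0.54 in M0 (SD). It fell in M2a (adjusted p = 0.0065) and did not pass in M1 (adjusted p = 0.27), and the direct difference of M1 from M2a, 0.71 ± 0.28, did not pass either (adjusted p = 0.079). It passed without M0 array 4 or 5, with adjusted p between 0.028 and 0.20 over the omissions.

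Cdc6, which loads the ring with the origin recognition complex, read 3.69, 3.80 and 3.75 in M1, 3.42, 3.43 and 3.53 in M2a, and 5.56, 5.72, 4.93, 5.31 and 5.50 in M0. All treated arrays lay below all M0 arrays. The differences from M0 were -1.65 ± 0.15 in M1 (adjusted p = 5.8e-06) and -1.94 ± 0.15 in M2a (adjusted p = 2.8e-06). Orc1, the origin recognition subunit that is made and destroyed with the cycle in mammalian cells, read 5.81, 5.48 and 5.52 in M1, 6.13, 6.04 and 6.12 in M2a, and 7.12, 6.22, 6.58, 7.27 and 6.00 in M0. The M1 arrays lay below all M0 arrays, and the M2a arrays overlapped M0 array 5. Its difference from M0 was -1.03 ± 0.26 in M1 (adjusted p = 0.0074) and -0.54 ± 0.26 in M2a (adjusted p = 0.13), and the M2a difference passed without M0 array 5 (adjusted p between 0.025 and 0.27 over the omissions). With the hybridization controls as a covariate, Orc1 lay 0.43 above M0 in M1 and 0.77 above it in M2a (adjusted p = 0.13 and 0.010).

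Cdt1, the second loading factor, averaged 8.99 ± 0.04 in M1, 9.41 ± 0.11 in M2a and 9.73 ± 0.27 in M0 (SD). It fell by 0.73 ± 0.14 in M1 (adjusted p = 0.0016), while the difference of M2a from M0, -0.32 ± 0.14, did not pass (adjusted p = 0.10) but did so without M0 array 1 or 4 (lowest adjusted p 0.042). The other 2 probe sets of Cdt1 went the other way in M1, and with all probe sets averaged the M1 call of Cdt1 was lost (adjusted p = 0.50). Orc6, a further origin recognition subunit, differed from M0 by -0.0046 ± 0.18 in M1 and by -0.39 ± 0.18 in M2a, neither past the test (adjusted p = 0.99 and 0.12). The M2a difference of Orc6 passed without M0 array 4 (adjusted p = 0.027).

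The promoters of these genes were searched for the letters of E2F sites, because E2F factors are the textbook regulators of this gene set. The windows run from 250 bases before to 50 bases after the RefSeq start of each gene (GRCm38.p6), and a window was held for 36 of the 42 listed genes. The letters TTTCCCGC, TTTCGCGC, TTTGGCGC and TTTGCCGC were searched on both strands. They stood in the windows of 14 of the 36 genes (38.9%), against 2.60% of 27025 genes and 2.26% of 32851 windows. Of the genes with a window that fell in M1, 12 of 22 held these letters, against 2 of 10 that did not pass and 0 of 3 that rose. Of those that fell in M2a, 10 of 23 held them, against 4 of 12 that did not pass. The letters CCAAT, on either strand, stood in 21 of 36 genes (58.3%), against 41.1% of all genes. The letters TTTGAA, the core of the element that mitotic genes often carry, stood in 4 of 36 (11.1%), against 20.2% of all genes. A match describes the letters only, and their use in these cells was not measured.

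The stretches below show these letters in genes that fell, with Gins3, which did not pass in M1, and with Rrm2 and Ccne1, whose windows held none. Capitals mark the E2F letters in either orientation, and each stretch reads in the direction of its gene. They lie at chr1:128359726-128359835 on the minus strand (Mcm6), chr8:75109329-75109408 on the plus strand (Mcm5), chr5:138172004-138172083 on the minus strand (Mcm7), chr11:98907981-98908060 on the plus strand (Cdc6), chr4:108579374-108579453 on the plus strand (Orc1), chr17:56304093-56304172 on the plus strand (Uhrf1), chr8:95633479-95633558 on the plus strand (Gins3), chrX:93632246-93632325 on the minus strand (Pola1), chr12:24708174-24708253 on the plus strand (Rrm2) and chr7:38107491-38107570 on the minus strand (Ccne1).
Mcm6: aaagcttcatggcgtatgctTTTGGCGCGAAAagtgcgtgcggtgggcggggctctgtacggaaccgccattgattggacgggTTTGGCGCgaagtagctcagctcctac
Mcm5: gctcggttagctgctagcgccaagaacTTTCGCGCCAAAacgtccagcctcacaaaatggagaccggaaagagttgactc
Mcm7: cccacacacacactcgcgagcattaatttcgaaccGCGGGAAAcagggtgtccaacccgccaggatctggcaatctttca
Cdc6: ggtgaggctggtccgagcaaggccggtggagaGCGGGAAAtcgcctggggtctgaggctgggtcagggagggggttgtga
Orc1: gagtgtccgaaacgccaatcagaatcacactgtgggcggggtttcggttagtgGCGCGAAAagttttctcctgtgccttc
Uhrf1: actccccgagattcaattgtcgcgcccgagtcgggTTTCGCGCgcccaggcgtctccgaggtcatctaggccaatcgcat
Gins3: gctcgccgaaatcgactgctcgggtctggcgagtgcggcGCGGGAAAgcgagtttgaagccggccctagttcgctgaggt
Pola1: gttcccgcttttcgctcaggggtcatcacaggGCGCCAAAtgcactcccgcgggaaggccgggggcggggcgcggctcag
Rrm2: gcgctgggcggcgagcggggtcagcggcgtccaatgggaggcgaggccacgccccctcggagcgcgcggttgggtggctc
Ccne1: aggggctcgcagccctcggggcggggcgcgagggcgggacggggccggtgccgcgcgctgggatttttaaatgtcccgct

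The first run of capitals in Mcm6 and the run in Mcm5 each hold a pair of overlapping matches on opposite strands, and Mcm6 holds a further match nearer its start, 3 in all. In Orc1 the match began 27 bases before the start, in Cdc6 138 bases before it and in Uhrf1 185 bases before it.

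Of the 5 helicase activation genes, 3 fell in M1 and 4 in M2a. Cdc45, which joins the ring to form the active helicase, read 5.96, 5.88 and 6.30 in M1, 6.45, 6.41 and 6.52 in M2a, and 7.72, 7.32, 6.87, 7.19 and 7.42 in M0. The 3 groups did not overlap. It fell by 1.26 ± 0.17 in M1 (adjusted p = 1.1e-04) and fell by 0.84 ± 0.17 in M2a (adjusted p = 0.0026), relative to M0, and the difference of M1 from M2a did not pass (adjusted p = 0.12). The M2a call was lost with the hybridization controls as a covariate (adjusted p = 0.11). Mcm10, a helicase activator, fell by 0.78 ± 0.11 in M1 and fell by 0.88 ± 0.11 in M2a (adjusted p = 2.2e-04 and 1.2e-04).

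Of the GINS subunits, which hold the active helicase together, Gins1 fell by 0.82 ± 0.16 in M1 and fell by 0.84 ± 0.16 in M2a (adjusted p = 0.0015 and 0.0016). Gins2 averaged 6.72 ± 0.08 in M1, 6.47 ± 0.10 in M2a and 6.71 ± 0.43 in M0 (SD), with no difference past the test. Gins3 read 6.26, 6.12 and 6.12 in M1, 5.78, 5.91 and 5.56 in M2a, and 6.05, 6.12, 6.07, 5.94 and 6.22 in M0. The M1 arrays overlapped M0, and the M2a arrays lay below both. Gins3 was lower in M2a than in M0 by -0.33 ± 0.10 (adjusted p = 0.030) and higher in M1 than in M2a by 0.41 ± 0.11 (adjusted p = 0.018). The first call was lost without M0 array 2 or M2a array 1 or 3 (adjusted p 0.020 to 0.16 over the omissions), and the other without M1 array 1 or M2a array 3 (0.014 to 0.081). On the other probe set of Gins3, M2a minus M0 was -0.09 and M1 minus M2a was -0.21. The call of M1 against M2a was also lost with the probe sets averaged or with the actin difference as a covariate.

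**Figure D2:**
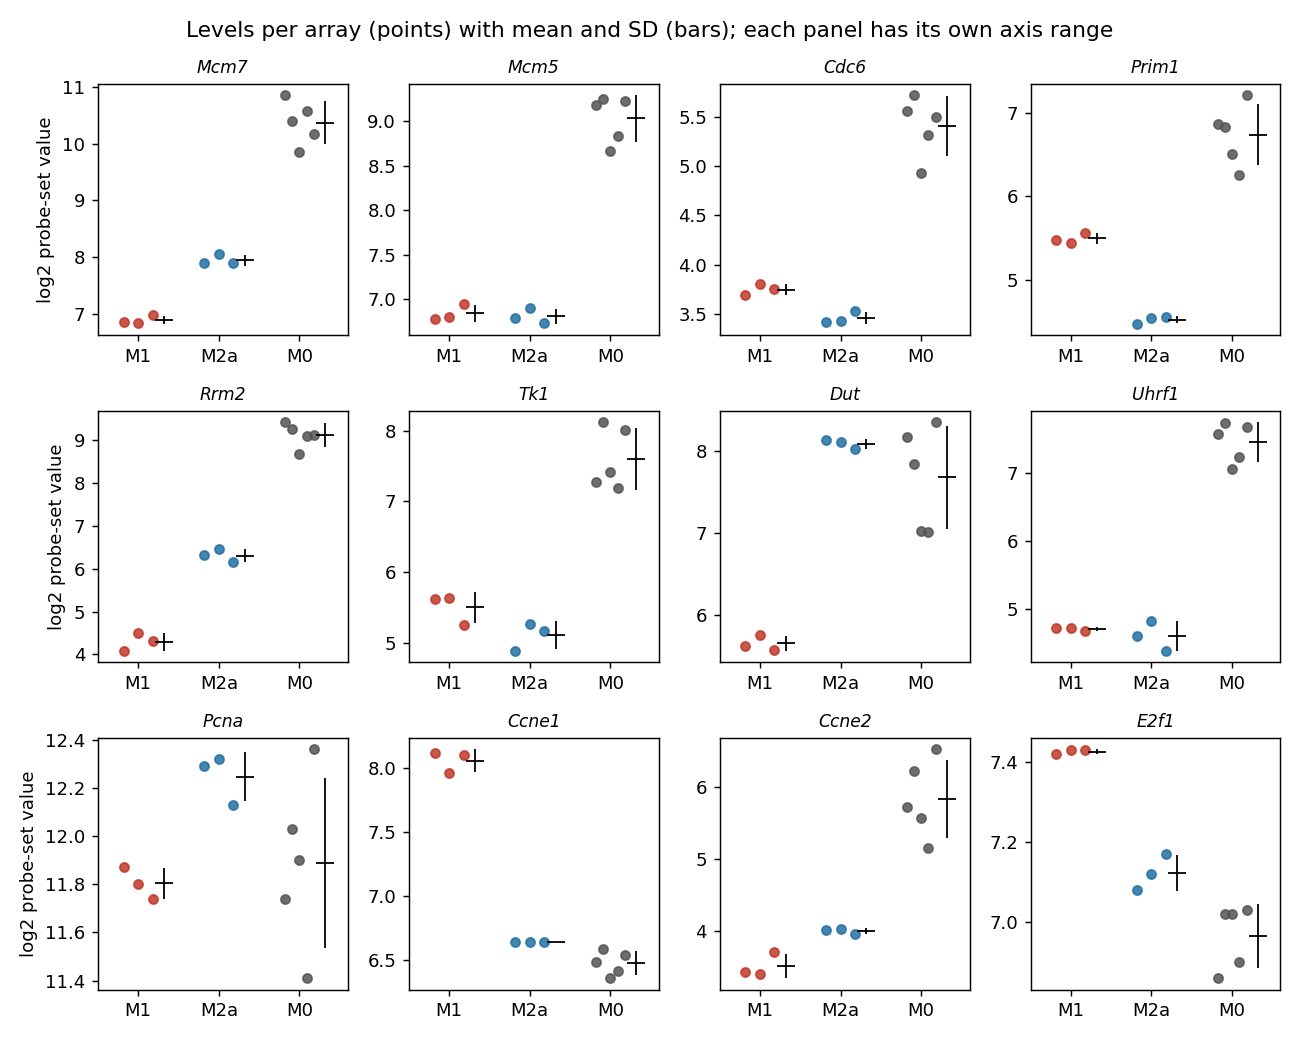
Log2 value on every array for selected replication genes, with M1 left, M2a in the middle and M0 right, and the mean with its SD beside each group. Mcm7, Mcm5 and Rrm2 lie far below M0 in both treated groups, while Ccne1 is at 7.96 to 8.12 in M1 and at 6.36 to 6.64 on all other arrays.

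Among the polymerases, 5 of 7 genes fell and 1 rose in M1, and 4 fell in M2a. Prim1, the catalytic subunit of primase, read 5.48, 5.45 and 5.57 in M1, 4.48, 4.55 and 4.56 in M2a, and 6.87, 6.83, 6.51, 6.26 and 7.21 in M0. The groups did not overlap, with M2a lowest. It fell by 1.24 ± 0.17 in M1 (adjusted p = 1.7e-04) and fell by 2.21 ± 0.17 in M2a (adjusted p = 3.1e-06), and M1 was above M2a by 0.97 ± 0.20 (1.96-fold, adjusted p = 0.0028). The other probe set of Prim1 fell by 1.93 in M1 and fell by 2.01 in M2a, so there M1 and M2a differed by 0.08.

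Pold1, the catalytic subunit of polymerase delta, read 6.35, 6.21 and 6.21 in M1, 6.71, 6.93 and 6.70 in M2a, and 7.95, 7.84, 7.66, 7.91 and 7.72 in M0. Here M1 was lowest. It fell by 1.56 ± 0.10 in M1 and fell by 1.03 ± 0.10 in M2a (adjusted p = 3.1e-07 and 1.5e-05), and M1 was below M2a by -0.52 ± 0.11 (adjusted p = 0.0041), a call lost when its probe sets were averaged or _x_at sets were left out (adjusted p = 0.065 and 0.75). Pole, the catalytic subunit of polymerase epsilon, went the other way between the treated groups. It fell by 0.90 ± 0.13 in M1 and fell by 1.39 ± 0.13 in M2a (adjusted p = 1.9e-04 and 1.0e-05), and M1 was above M2a by 0.49 ± 0.14 (adjusted p = 0.024), a call lost without M1 array 2 or 3 or M2a array 3 (adjusted p 0.011 to 0.099).

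Pola1, the catalytic subunit of polymerase alpha, varied from 5.80 to 7.41 among M0 arrays. It fell by 0.80 ± 0.28 in M1 (adjusted p = 0.039) and fell by 1.06 ± 0.28 in M2a (adjusted p = 0.013). The M1 call was lost on leaving out any of 8 single arrays (all but M0 arrays 3, 4 and 5), with adjusted p between 0.0029 and 0.13, and the M2a call without M2a array 1 (adjusted p = 0.051). Its partner Pola2 rose by 0.24 ± 0.09 in M1 (1.18-fold, adjusted p = 0.050, under the threshold before rounding). That call was lost on leaving out any 1 array other than M0 array 4 (adjusted p 0.035 to 0.14), and both other probe sets of Pola2 lay lower in M1 than in M0. M1 was above M2a for Pola2 by 0.39 ± 0.10 (adjusted p = 0.013), a call lost without M2a array 2 (adjusted p = 0.064).

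Pole2, a polymerase epsilon subunit, averaged 6.35 ± 0.14 in M1, 6.83 ± 0.13 in M2a and 7.12 ± 0.56 in M0 (SD). It fell in M1 (adjusted p = 0.035), a call lost without M0 array 2 or any 1 M1 array (adjusted p 0.0055 to 0.11), and did not pass in M2a (adjusted p = 0.43). Prim2, the second primase subunit, differed from M0 by -0.53 ± 0.23 in M1 and by -0.49 ± 0.23 in M2a, neither past the test (adjusted p = 0.094 and 0.13), though both passed without M0 array 4 (0.0096 and 0.015).

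The clamp, its loader and the single-strand binding proteins held more genes that did not pass. Of 9 genes, 2 fell in M1 and 6 in M2a, where 17.6% and 13.3% of all genes fell, so the share in M1 was near that of all genes. Pcna, the sliding clamp, read 11.87, 11.80 and 11.74 in M1, 12.29, 12.32 and 12.13 in M2a, and 11.74, 12.03, 11.90, 11.41 and 12.36 in M0. The M1 arrays lay below the M2a arrays, and both lay within the M0 range. The differences from M0 were -0.08 ± 0.17 in M1 (adjusted p = 0.73) and 0.37 ± 0.17 in M2a (adjusted p = 0.13), and the second passed without M0 array 5 (0.016). M1 lay below M2a by -0.45 ± 0.19 (adjusted p = 0.10), which passed without M0 array 4 or 5 (lowest adjusted p 0.034).

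Rfc5, a clamp loader subunit, read 8.11, 8.03 and 8.08 in M1, 7.04, 7.04 and 6.96 in M2a, and 7.93, 7.82, 7.48, 7.47 and 8.02 in M0. The M1 arrays lay just above all M0 arrays and the M2a arrays below them. M1 was above M2a by 1.06 ± 0.15 (2.09-fold, adjusted p = 1.9e-04), M2a was below M0 by -0.73 ± 0.13 (adjusted p = 0.0014), and M1 differed from M0 by 0.33 ± 0.13 (adjusted p = 0.066). The last passed without M0 array 1 or 5 (lowest adjusted p 0.019). Rfc3, also of the loader, was above M2a in M1 by 0.53 ± 0.18 (adjusted p = 0.045), a call lost on leaving out M0 array 3 or any 1 M1 or M2a array (0.024 to 0.13). Rfc3 in M1 differed from M0 by 0.34 ± 0.16 (adjusted p = 0.11), which passed without M0 array 5 (0.037). Rfc4 ranged from 5.12 to 7.69 among M0 arrays, and none of its differences passed in the main fit. Its other probe set differed from M0 by -1.40 in M1 and by -0.54 in M2a. M1 minus M2a was -0.87 on that set and 0.14 on the set used. With the probe sets averaged, the M1 difference of Rfc4 from M0 passed.

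The single-strand binding protein Rpa has 3 subunits. Rpa1 fell by 0.46 ± 0.13 in M1 and fell by 0.41 ± 0.13 in M2a (adjusted p = 0.016 and 0.033). The M1 call was lost without M1 array 1 or 2 (0.0060 to 0.060) and the M2a call without M0 array 2 or 3 or any 1 M2a array (0.012 to 0.095). Rpa2 averaged 7.23 ± 0.14 in M1, 6.53 ± 0.25 in M2a and 7.39 ± 0.23 in M0 (SD). It fell in M2a by 0.86 ± 0.15 (adjusted p = 0.0011), and M1 was above M2a by 0.70 ± 0.17 (adjusted p = 0.0076), a call lost with the actin difference as a covariate (adjusted p = 0.088). Rpa3 fell in M2a by 0.81 ± 0.22 (adjusted p = 0.015), a call lost without M2a array 1 (0.059), and differed by -0.29 ± 0.22 in M1 (adjusted p = 0.31).

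Lig1, the ligase that joins lagging-strand fragments, read 6.90, 6.98 and 7.10 in M1, 6.85, 7.02 and 6.91 in M2a, and 8.19, 8.64, 7.92, 8.11 and 8.39 in M0. Both treated groups lay below M0. It fell by 1.25 ± 0.14 in M1 and fell by 1.33 ± 0.14 in M2a (adjusted p = 3.3e-05 and 3.4e-05). Fen1, the nuclease that trims those fragments, fell in M2a by 0.35 ± 0.11 (adjusted p = 0.030), a call lost without any 1 M2a array (0.014 to 0.11), and differed by -0.13 ± 0.11 in M1 (adjusted p = 0.36).

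Of the 5 nucleotide supply genes, all fell in M1 and 3 in M2a. Rrm2, the S phase subunit of ribonucleotide reductase, read 4.08, 4.50 and 4.32 in M1, 6.31, 6.45 and 6.15 in M2a, and 9.41, 9.25, 8.66, 9.09 and 9.12 in M0. The groups did not overlap. The difference from M0 was -4.81 ± 0.16 in M1 (28.0-fold lower, adjusted p = 1.4e-09) and -2.80 ± 0.16 in M2a (6.98-fold lower, adjusted p = 2.3e-07), and M1 was below M2a by -2.00 ± 0.18 (adjusted p = 5.1e-06).

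The probe sets of Rrm2 did not rank M1 and M2a alike. Its other probe sets put M1 below M0 by -1.65 and -3.23 and M2a below M0 by -2.55 and -2.91, so the fall from M0 was on all of them. M1 minus M2a was 0.90 on the first of these and -0.33 on the other. The probe set used above has an _x_at name, which marks probes that can match other transcripts, and with such sets left out M1 minus M2a was 0.90 (adjusted p = 0.089).

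Rrm1, the large subunit of the reductase, averaged 7.21 ± 0.10 in M1, 7.02 ± 0.16 in M2a and 8.81 ± 0.24 in M0 (SD). Both treated groups lay below M0 and overlapped each other. It fell by 1.60 ± 0.14 in M1 and fell by 1.79 ± 0.14 in M2a (adjusted p = 3.6e-06 and 2.7e-06). Tk1, the thymidine kinase made in S phase, averaged 5.50 ± 0.22 in M1, 5.11 ± 0.20 in M2a and 7.60 ± 0.43 in M0 (SD). It fell by 2.10 ± 0.22 in M1 and fell by 2.49 ± 0.22 in M2a (adjusted p = 1.7e-05 and 7.2e-06).

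Dut, the enzyme that keeps uracil out of DNA, differed most between the treated groups. It read 5.63, 5.76 and 5.58 in M1, 8.13, 8.11 and 8.02 in M2a, and 8.17, 7.84, 7.03, 7.01 and 8.35 in M0. The M1 arrays lay below all others, and the M2a arrays lay within the M0 range. M1 was below M2a by -2.43 ± 0.32 (5.40-fold lower, adjusted p = 1.2e-04) and below M0 by -2.02 ± 0.29 (adjusted p = 1.7e-04), while M2a differed from M0 by 0.41 ± 0.29 (adjusted p = 0.31). On the other probe set of Dut, M1 differed from M2a by -1.79 and from M0 by -0.49, and M2a differed from M0 by 1.30. Tyms, thymidylate synthase, averaged 3.22 ± 0.06 in M1, 3.88 ± 0.05 in M2a and 4.05 ± 0.21 in M0 (SD). M1 was below M0 by -0.83 ± 0.12 and below M2a by -0.66 ± 0.13 (adjusted p = 1.8e-04 and 0.0027), and the call against M2a was lost when its probe sets were averaged (adjusted p = 0.33). No detection calls were used here, so whether levels as low as those of Tyms lay above background could not be told.

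In chromatin replication, Uhrf1, which passes DNA methylation on to the new strand, read 4.71, 4.71 and 4.67 in M1, 4.60, 4.82 and 4.37 in M2a, and 7.58, 7.74, 7.07, 7.24 and 7.69 in M0. Both treated groups lay far below M0 and overlapped each other. It fell by 2.77 ± 0.16 in M1 (6.83-fold, adjusted p = 1.5e-07) and fell by 2.87 ± 0.16 in M2a (7.30-fold, adjusted p = 2.0e-07). Chaf1b, a subunit of the chromatin assembly factor, fell in M2a by 0.33 ± 0.11 (adjusted p = 0.042). That call was lost on leaving out any of 7 single arrays (M0 array 1, 2 or 5, M1 array 3 or any M2a array), with adjusted p between 0.016 and 0.13, and the M1 difference of -0.21 ± 0.11 did not pass (adjusted p = 0.15).

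The G1/S regulators divided. Ccne1, cyclin E1, which drives entry into S phase with Cdk2, read 8.12, 7.96 and 8.10 in M1, 6.64 on each M2a array, and 6.49, 6.59, 6.36, 6.42 and 6.54 in M0. The M1 arrays stood above all others. Ccne1 rose by 1.57 ± 0.08 in M1 over M0 (2.98-fold, adjusted p = 7.3e-08) and was 1.42 ± 0.09 above M2a (2.67-fold, adjusted p = 4.0e-07), while M2a differed from M0 by 0.16 ± 0.08 (adjusted p = 0.18). Its other probe set had M1 above M0 by 2.19 and above M2a by 1.84.

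Ccne2, cyclin E2, went the other way. It read 3.42, 3.40 and 3.70 in M1, 4.01, 4.03 and 3.95 in M2a, and 5.72, 6.23, 5.57, 5.15 and 6.53 in M0. All treated arrays lay below all M0 arrays. It fell by 2.33 ± 0.25 in M1 (5.04-fold, adjusted p = 2.1e-05) and fell by 1.84 ± 0.25 in M2a (3.59-fold, adjusted p = 1.9e-04), and the difference of M1 from M2a did not pass (adjusted p = 0.22).

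E2f1, an activator of replication genes, read 7.42, 7.43 and 7.43 in M1, 7.08, 7.12 and 7.17 in M2a, and 6.86, 7.02, 7.02, 6.90 and 7.03 in M0. The groups did not overlap, with M1 highest and M0 lowest, and the steps were small. It rose by 0.46 ± 0.08 in M1 (1.38-fold, adjusted p = 7.1e-04), and M2a differed from M0 by 0.16 ± 0.08 (adjusted p = 0.15). M1 was above M2a by 0.30 ± 0.09 (adjusted p = 0.024), a call lost on leaving out any 1 M1 array or M2a array 1 or 2 (0.017 to 0.086). One other probe set of E2f1 put M1 minus M0 at -0.04 and M1 minus M2a at -0.07, and a further set put them at 0.28 and 0.21. The rise of E2f1 over M0 was lost with the hybridization controls as a covariate (adjusted p = 0.12).

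Set against each other directly, M1 and M2a differed on 15 of the 41 genes. M1 was higher for 9 of them (Ccne1, Rfc5, Prim1, Rpa2, Rfc3, Pole, Gins3, Pola2 and E2f1) and lower for 6 (Dut, Rrm2, Mcm7, Tyms, Pold1 and Mcm6), and 26 did not pass. Over all genes, 29.4% passed, 13.7% higher and 15.6% lower in M1, so the share called among the replication genes was not far from that of all genes. Differences of at least 2-fold passed for 2 higher and 3 lower genes, where 5.51% and 5.47% of all genes did so. Every M1 array lay above every M2a array for 17 genes and below for 14, where 30.7% and 33.9% of all genes did so. The median difference was 0.12, against -0.02 for all genes. Of the further probe sets of the called genes, 15 of 21 went the same way. With only the M1 and M2a arrays in the fit, 18 genes were higher and 13 lower, where 56.9% of all genes passed.

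**Figure D3:**
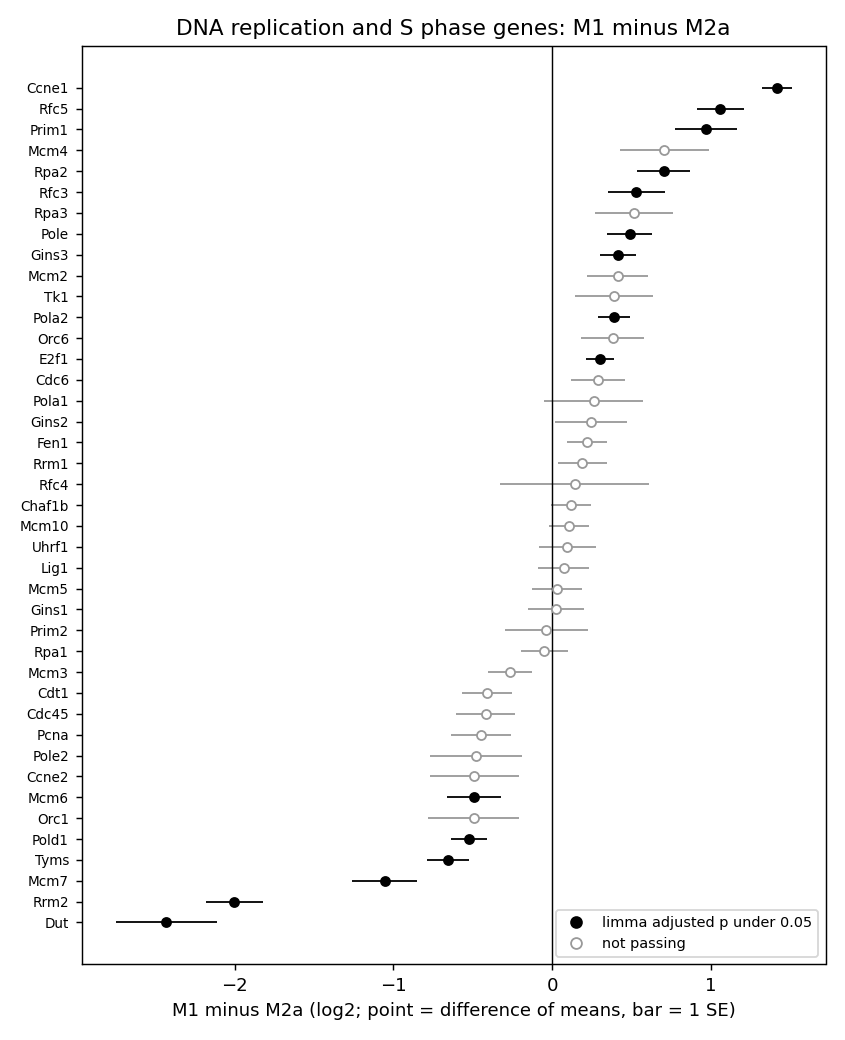
M1 minus M2a in log2 for the 41 replication genes, ordered by size, with bars of 1 SE. Filled points passed limma at an adjusted p under 0.05, 9 above 0 with Ccne1 at the top (1.42) and 6 below 0 with Dut at the bottom (-2.43).

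Replication factors outside the list were examined in the same fit. Of 35, 9 rose and 14 fell in M1, and 3 rose and 17 fell in M2a, with median differences of -0.24 and -0.34. The shares over all genes were 22.1% rising and 17.6% falling in M1, and 18.6% and 13.3% in M2a, so the share that rose in M1 was near that of all genes. Top2a, the topoisomerase that untangles copied DNA, fell by 3.19 ± 0.16 in M1 and fell by 2.63 ± 0.16 in M2a (adjusted p = 4.3e-08 and 3.7e-07). Clspn, the fork protein claspin, fell by 2.17 ± 0.17 in M1 and fell by 2.02 ± 0.17 in M2a (adjusted p = 1.5e-06 and 4.9e-06). Some members rose in M1, among them Mcm9, a paralog of the ring with a role in repair, by 1.44 ± 0.35 (adjusted p = 0.0071) and Orc4 by 1.24 ± 0.28 (adjusted p = 0.0049). In M2a, Pold4, a small polymerase delta subunit, rose by 0.80 ± 0.24 (adjusted p = 0.022) and Rnaseh2a, of the enzyme that removes RNA from DNA, by 0.46 ± 0.10 (adjusted p = 0.0059). Against M2a, M1 was higher for Pold2, a polymerase delta subunit, by 1.46 ± 0.26 and for Atad5, which unloads Pcna, by 1.30 ± 0.21 (adjusted p = 0.0013 and 5.3e-04).

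Of 14 further nucleotide supply genes, 1 rose and 4 fell in M1, and 2 rose and 4 fell in M2a. Of all genes, 22.1% rose and 17.6% fell in M1, and 18.6% rose and 13.3% fell in M2a. With so few genes, the counts were not read as differing from these shares. Samhd1, the enzyme that breaks down deoxynucleotides, averaged 11.41 ± 0.08 in M1, 10.12 ± 0.25 in M2a and 10.15 ± 0.10 in M0 (SD). It rose by 1.27 ± 0.11 in M1 over M0 (adjusted p = 4.8e-06), and M1 was above M2a by 1.29 ± 0.13 (adjusted p = 1.1e-05). Shmt1, of folate metabolism, fell by 1.95 ± 0.27 in M1 and fell by 1.68 ± 0.27 in M2a (adjusted p = 1.3e-04 and 5.5e-04). Dck, the deoxycytidine kinase of nucleoside salvage, fell in M2a by 1.14 ± 0.12 (adjusted p = 2.2e-05), and M1 was above M2a by 1.24 ± 0.13 (adjusted p = 2.0e-05).

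Of 14 further chromatin genes, 2 rose and 9 fell in M1, and 9 fell in M2a, where 17.6% and 13.3% of all genes fell. Hmgb2, a chromatin protein of dividing cells, fell by 1.92 ± 0.28 in M1 and fell by 3.24 ± 0.28 in M2a (adjusted p = 2.1e-04 and 5.7e-06), and Asf1b, a histone chaperone, fell by 1.49 ± 0.13 in M2a (adjusted p = 4.9e-06). Hat1, which acetylates new histones, rose in M1 by 1.75 ± 0.27 over M0 and stood 1.74 ± 0.30 above M2a (adjusted p = 3.2e-04 and 9.5e-04).

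Among 32 further G1/S regulators, 3 rose and 14 fell in M1, and 3 rose and 13 fell in M2a, where 22.1% of all genes rose and 17.6% fell in M1, and 18.6% rose and 13.3% fell in M2a. Cdkn1a, the cyclin-dependent kinase inhibitor p21, averaged 11.27 ± 0.13 in M1, 10.46 ± 0.05 in M2a and 8.78 ± 0.42 in M0 (SD). It rose by 2.49 ± 0.20 in M1 (5.62-fold, adjusted p = 1.7e-06) and by 1.68 ± 0.20 in M2a (3.21-fold, adjusted p = 6.4e-05). E2f2, another activator E2F, fell by 3.46 ± 0.16 in M1 and fell by 2.29 ± 0.16 in M2a (adjusted p = 2.0e-08 and 1.1e-06), and Ccna2, the S phase cyclin A2, fell by 2.36 ± 0.29 in M1 and fell by 2.49 ± 0.29 in M2a (adjusted p = 6.4e-05 each). Rbl1, the E2F repressor p107, rose in M1 by 1.19 ± 0.27 (adjusted p = 0.0046) and was 1.87 ± 0.30 above M2a (adjusted p = 6.0e-04). M1 was below M2a for Cdkn1c, the inhibitor p57, by -1.87 ± 0.34 and for Cdk6, a G1 kinase, by -1.73 ± 0.24 (adjusted p = 0.0014 and 1.9e-04).

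Of 20 S phase checkpoint and fork repair genes, 3 rose and 7 fell in M1, and 11 fell in M2a, where 22.1% of all genes rose and 17.6% fell in M1, and 13.3% fell in M2a. Rad18, a ubiquitin ligase of stalled forks, fell by 1.06 ± 0.23 in M1 (adjusted p = 0.0032), and Msh6, a mismatch repair protein, fell by 1.26 ± 0.24 in M2a (adjusted p = 0.0020). Hus1, of the checkpoint clamp, rose in M1 by 1.13 ± 0.26 (adjusted p = 0.0053). Of the mitosis genes, all 19 measured fell in both M1 and M2a, with median differences of -1.91 and -2.01. Ube2c, which helps end mitosis, fell by 4.46 ± 0.17 in M1 (22.0-fold, adjusted p = 5.1e-09), and Mki67, the proliferation marker Ki-67, fell by 3.59 ± 0.19 in M2a (12.1-fold, adjusted p = 1.4e-07).

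Markers of other marrow cells moved with the comparisons to M0. Of 12 neutrophil lineage genes, 11 fell in M1 and all 12 in M2a, and their summed linear level was 12427 to 13390 in M1, 586 to 642 in M2a and 54691 to 108830 in M0. The median of the list was 6.11 to 6.20 in M1, 5.07 to 5.24 in M2a and 11.32 to 12.93 in M0 (log2). The M1 sum therefore does not reflect the typical gene of the list. Mpo, the granule enzyme of early neutrophils, averaged 3.97 ± 0.17 in M1, 4.76 ± 0.03 in M2a and 11.57 ± 1.08 in M0 (log2, SD), and Elane, neutrophil elastase, 5.53 ± 0.12, 5.79 ± 0.16 and 8.96 ± 1.05 in the same order. Of 11 genes of mast cells, basophils or eosinophils, 9 fell in each and 1 rose in M1. Their summed levels were 196 to 212 in M1, 234 to 265 in M2a and 4904 to 12724 in M0. Of 8 stem and progenitor genes, 5 fell in M1, and 3 fell and 3 rose in M2a, with summed levels of 1472 to 1553, 1776 to 1813 and 2335 to 4369 in M1, M2a and M0. The part of such cells in the fall of the replication genes was not tested. Among 9 erythroid and megakaryocyte genes, 2 rose and 5 fell in M1, and 0 rose and 5 fell in M2a. The 8 lymphoid genes held 1 rise and 3 falls in M1, and 2 rises and 2 falls in M2a. Summed, the lymphoid level was 400 to 416 in M1, 2977 to 3107 in M2a and 960 to 1574 in M0. The 12 stroma and endothelium genes held 1 rise and 4 falls in M1, and 1 rise and 7 falls in M2a. For 9 macrophage genes, 4 rose and 2 fell in M1, and 1 rose and 6 fell in M2a. Beside all these lists, 22.1% of all genes rose and 17.6% fell in M1, and 18.6% rose and 13.3% fell in M2a.

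The means per array of the replication genes and the marker lists can be set side by side within M0. The mean of the 41 genes was 6.57 to 6.64 on M1 arrays, 6.58 to 6.65 on M2a arrays, and 7.55, 7.76, 7.32, 7.29 and 7.80 on M0 arrays 1 to 5. M0 array 5 was the highest of the M0 arrays for 21 genes and array 2 for 13, and arrays 3 and 4 were the lowest for 17 each. The neutrophil list was highest on M0 array 1, at a mean of 12.67, and between 11.13 and 11.83 on the others. The list of mast cell, basophil and eosinophil genes (8.06 and 7.40) and that of stem and progenitor genes (7.84 and 7.61) were also highest on M0 array 1, with M0 array 5 next.

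**Figure D4:**
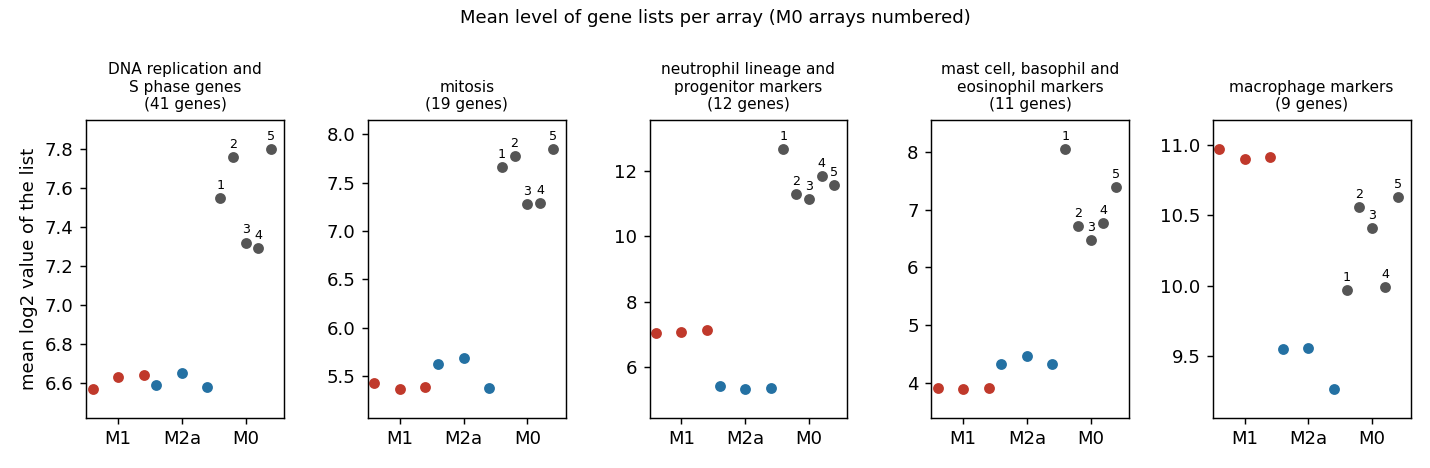
Mean log2 value per array of the replication genes, the mitosis genes and 3 marker lists, with M1 left, M2a in the middle and M0 right, and M0 arrays marked by number. The replication genes lie at 6.57 to 6.65 on the treated arrays and at 7.29 to 7.80 on the M0 arrays.

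Control probe sets also moved with the groups. The hybridization controls, added at equal amounts by the standard protocol, averaged 9.64 to 9.75 in M1, 9.79 to 9.96 in M2a and 10.61 to 11.70 in M0. The added poly-A controls averaged 5.27 to 5.37, 5.93 to 6.11 and 8.47 to 9.48 in the same order. The difference of the 5' from the 3' actin probe sets, a measure of RNA integrity and labelling, was 0.13 to 0.18 in M1, -0.63 to -0.53 in M2a and -1.27 to 0.05 in M0. The 18S ribosomal RNA probe sets averaged 6.15 to 6.30 in M1, 8.51 to 8.64 in M2a and 8.96 to 9.54 in M0. The part of these controls in the falls from M0 was not tested. Fits were made with the hybridization controls or the actin difference as a covariate. The hybridization controls of every treated array lay below those of every M0 array, so that fit cannot separate them from treatment. The same holds for the actin difference in M1, which lay above every M0 array. Neither measure overlapped between M1 and M2a, so these fits cannot separate them from treatment in that comparison either. With the hybridization controls as a covariate, the median difference of the replication genes was -1.25 in M1 and -1.27 in M2a.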

How the data were processed

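Expression on 11 arrays (3 of M1, 3 of M2a and 5 of M0 macrophages) was deposited as log2 values of 45101 probe sets. The submitters' processing notes name Partek with no version. Background correction, probe summary and normalization: not given in the sources used here. No further transform was made of the deposited log2 values. A probe-to-gene table gave 1 symbol to 34945 probe sets and several to 932, the 64 control probe sets were set aside, and 18193 genes were tested. One model with a mean per group was fitted over all arrays with limma 3.58.1 in R 4.3.3 (lmFit, eBayes, 8 residual degrees of freedom), with Benjamini-Hochberg adjustment over all genes and a threshold of 0.05. A test on simulated data was run first. Lists got counts and medians but no test. All listed genes were named. From each list outside them, up to 2 genes each way per comparison were picked, and only some of these are given above. They had the largest difference among called genes whose arrays did not overlap. Positions and promoter sequences are RefSeq's (GRCm38.p6). The genes and lists were chosen with earlier results of these data known. The number of arrays limits the precision, and 24 alternatives were tried.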

Additional observations from a re-analysis of the deposited data

How the results depend on the processing

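Of the calls on replication genes, 20 of 28 in M1 against M0, 20 of 27 in M2a against M0 and 5 of 15 in M1 against M2a were held under every alternative that measured the gene, 23 or 24 of them (genes of low level were not in the fit to genes above the median). The numbers of genes that fell stayed within 1.5 times in both comparisons with M0, and the falls in the median kept their sign. In some alternatives, such as M0 arrays 1 to 3 alone or only the 2 groups compared, the group means stayed the same. There the median could not move. Leaving out 1 array at a time gave 2 to 4 higher, 21 to 26 lower and a median of -0.84 to -0.66 in M1 against M0, 0 to 1 higher, 21 to 30 lower and -0.89 to -0.74 in M2a against M0, and 6 to 10 higher, 5 to 8 lower and 0.09 to 0.20 in M1 against M2a. Not every pair of samples with the same number deviated together (correlations 0.25, 0.04 and 0.17 for M1 with M0, 0.00, 0.01 and -0.04 for M2a with M0), so the numbers were not taken to pair the samples, and 1 of 3 M1 samples and 0 of 3 M2a samples correlated best with their own number in M0, and 2 of 3 M1 samples with their own number in M2a. A replicate block gave 3 higher and 26 lower, 1 and 28, and 11 and 10 in the 3 comparisons, where 44.1%, 35.7% and 38.3% of all genes passed.

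Averaging all probe sets of each gene, the median in M1 against M0 was -0.46, 2 genes were higher in M2a against M0 and 3 lower in M1 against M2a, and Pola2 in M1 against M0 (-0.046) and Chaf1b in M2a against M0 (0.012) turned. Without _x_at and _s_at sets, 1 gene was higher in M2a against M0, and in M1 against M2a Mcm2 (-0.66) and Rrm2 (0.90) turned. Array weights gave 5 higher in M1 and 2 in M2a against M0, and 18 higher and 13 lower in M1 against M2a. With these weights 56.5%, 46.4% and 62.3% of all genes passed in the 3 comparisons. M0 arrays 1 to 3 alone gave 1 higher in M2a against M0. The hybridization covariate gave medians of -1.25 and -1.27 in M1 and M2a, 1 higher in each, and 11 lower in M1 against M2a, where 46.4% of all genes passed. This covariate moved the median of all genes in M2a against M0 to 0.11. It turned Orc1 (0.43), Gins2 (-1.14) and Rfc3 (-0.54) in M1 and Orc1 (0.77) and Fen1 (0.062) in M2a. The actin covariate gave a median of -1.10 in M1, 1 higher in M2a, and 14 lower with a median of -0.11 in M1 against M2a, and turned Gins1 (-0.41), Pola1 (-0.62) and Rfc4 (-1.25) there. With that covariate 38.5% of all genes passed in M1 against M2a. Without M0 arrays 1 and 4, a setting chosen after seeing the data, 3 genes were higher and 26 lower in M1, 0 and 34 in M2a, and 12 and 11 in M1 against M2a. There 50.7%, 45.3% and 47.6% of all genes passed. With only M1 and M2a in the fit, 18 were higher and 13 lower, where 56.9% of all genes passed. The causes were not tested.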
